A study of Mus musculus with 2 samples.

Results

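The zinc-finger gene cluster of distal mouse chromosome 2 was described in polyadenylated RNA of embryonic midbrain. Its members were chosen by position and biotype, as every gene that GENCODE M21 marks as protein-coding on chromosome 2 with a start from 174500000 to 178500000 (mm10). That gave 52 genes of 55536 annotated genes, 22028 of them protein-coding. The region itself had been proposed from measured values, the library ratios of Gm14434 and Zfp969, so every ratio between the libraries is given here as a description with no test. The study holds a single group, the midbrain of B6NCrl mouse embryos at age 12.5 days, with 2 libraries. Embryos of either sex were pooled, 120 of them for replicate 1 and 88 for replicate 2, and each library started from 10 ng of RNA primed with oligo-dT. No embryo was altered or treated, and with 1 library per pool a difference between pools cannot be told apart from a difference between libraries.

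Most genes of such clusters encode KRAB zinc-finger proteins. These carry a KRAB domain near the amino end, which recruits the corepressor TRIM28, and a row of C2H2 fingers, each of which holds a zinc ion with a pair of cysteines and a pair of histidines and can contact DNA. Many are known to silence transposable elements, and mouse clusters have grown by repeated duplication of whole genes. Because of that history the copies can be so alike that a sequenced read has several possible sources, and a quantification model must divide it between them.

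Between the first and the last gene with at least 3 finger patterns lay an array of 45 members (chr2:175010241-178078476), 22 on the plus strand and 23 on the minus strand. A finger pattern was a cysteine, 2 to 4 residues, a cysteine, 12 residues, a histidine, 3 to 5 residues and a histidine in the translated longest coding sequence. By that measure 36 array members were zinc-finger genes, with 3 to 25 patterns (median 13) in coding sequences of 561 to 2502 bases, and 35 of them also held a KRAB-like pattern in a transcript. The KRAB-like pattern without 3 fingers was found in 6 more (Gm14440, Gm14288, 2210418O10Rik, Gm14435, Gm14296 and Gm14327). Gm11009, Gm14408 and Zfp972 held neither pattern. The other 7 members flank the array: Zfp831, with 2 finger patterns, and Edn3 on the proximal side, and Phactr3, Sycp2, Ppp1r3d, Fam217b and Cdh26 on the distal side.

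The repeat unit of the array is shown by finger 2 of the longest coding sequence of Gm14434 and of Zfp969, the genes that led to the region. Each unit runs 5′ to 3′ on the minus strand from the first cysteine codon over 84 bases, and the capitals mark the codons of the zinc-binding cysteines and histidines. The Gm14434 unit lies at chr2:176474295-176474378 and the Zfp969 unit at chr2:175693710-175693793 (mm10, GENCODE M21 transcripts).
Gm14434: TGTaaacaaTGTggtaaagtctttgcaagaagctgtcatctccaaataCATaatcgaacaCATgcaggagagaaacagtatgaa
Zfp969: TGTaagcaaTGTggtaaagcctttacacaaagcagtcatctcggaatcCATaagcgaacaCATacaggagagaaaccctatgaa

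How far copies differ is shown by coding bases 952 to 1071 of Gm14434, Gm14305 and Gm14325, with positions counted from 1 at the first base of the start codon. Capitals mark the bases of Gm14305 or Gm14325 that differ from Gm14434, and in Gm14434 the bases that differ from either. The stretches lie at chr2:176473704-176473823 on the minus strand, chr2:176721268-176721387 on the plus strand and chr2:177832217-177832336 on the minus strand.
Gm14434: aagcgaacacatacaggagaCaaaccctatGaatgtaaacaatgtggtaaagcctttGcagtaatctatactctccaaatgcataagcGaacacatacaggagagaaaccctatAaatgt
Gm14305: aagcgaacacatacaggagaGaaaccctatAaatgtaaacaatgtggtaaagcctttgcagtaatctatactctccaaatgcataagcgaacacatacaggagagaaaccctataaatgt
Gm14325: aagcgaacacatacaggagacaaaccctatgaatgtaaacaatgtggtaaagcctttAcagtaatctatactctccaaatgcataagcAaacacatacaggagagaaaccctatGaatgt

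Over the whole coding sequence of 1494 bases, Gm14305 differed from Gm14434 at 7 positions, 6 of which change the residue. They were A178C, A612C, C972G, G982A, G1224C, C1291G and T1465C, with the base of Gm14434 first. Gm14325 differed at 66 positions, 49 of which lie in codons whose residue differs, some codons holding several of them. Other copies did not differ at all. The 36 zinc-finger members held 24 distinct coding sequences, and 19 members, 2 of them without fingers, fell into 6 families whose longest coding sequences were identical. The largest family had 7 genes (Gm4631, Gm4724, Gm11007, Gm2007, Gm2026, Gm14434 and Gm14308) with 13 finger patterns in 1494 bases. The next had 4 genes (Zfp968, Zfp969, Zfp966 and Zfp967) with 11 patterns in 1455 bases. The pairs were Zfp965 and Zfp973, Gm14391 and Gm6710, Gm2004 and Gm14419, and 2210418O10Rik and Gm14296, the last pair with no finger pattern.

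Sequence held by a single gene was scarce. All transcripts of each gene were split into windows of 100 bases, read along the transcript. A window was called unique if no transcript of another gene held it in the same direction. Antisense matches were not searched. The median unique share was 31.5% over the members and 26.7% over the array, against 100% over the flanking members and over all protein-coding genes. No unique window at all was found for 9 members, namely Gm14440, Gm11007, Zfp969, Gm2007, Gm14288, Gm2004, 2210418O10Rik, Gm11009 and Zfp967. Among all protein-coding genes 315 had none. Gm14434 had 9 unique windows of 2749, or 0.33%, and shared 96.9% of its windows with Gm2026. Every window of Zfp969 was also found in Zfp968. At the other end, Gm14443 (99.2%), Gm14412 (97.2%), Gm14403 (95.1%) and Zfp931 (93.1%) were nearly all unique.

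Depth and tissue were checked over all genes. The files give expected counts, which are read numbers estimated by a model and need not be whole. They summed to 29056772 over genes in replicate 1 and 37122519 in replicate 2. The midbrain and neuronal marker genes were all detected (8 of 8 at 1 TPM or more in both libraries, log2 ratios of replicate 1 over replicate 2 from −0.50 to 0.29), and no count fell on Hoxa4, Hoxb4 or Hoxc6 of hindbrain and spinal cord. Blood, connective tissue and endothelial markers were also present (5 of 5), with log2 ratios from −0.50 to −0.15.

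The cluster as a whole was a low and even signal. Its 52 genes summed to 8649.96 expected counts in replicate 1 and 11057.22 in replicate 2. After scaling of the libraries by the trimmed mean of M-values (TMM), the log2 ratio of replicate 1 over replicate 2 was 0.01, with a 95% counting interval from −0.03 to 0.05. Scaling to the ERCC spike-in RNAs instead lowered every log2 ratio by the same amount and gave −0.26. The cluster took 0.0298% ± 0.000012 of all gene counts (SD, n = 2). The array alone had 7686.96 and 9743.22 counts and a log2 ratio of 0.02 (−0.02 to 0.06). The flanking genes had 963 and 1314 counts and a log2 ratio of −0.08 (−0.21 to 0.04). Such intervals cover counting error only, and reads copied by PCR are not independent molecules.

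Level was given as deposited TPM, an abundance per length that is scaled to the same total in every library. In both libraries 35 members reached 1 TPM, of which 25 were zinc-finger members. The highest zinc-finger member was Gm14325, at 29.7 TPM in replicate 1 and 30.7 TPM in replicate 2. Most of that level lay on a transcript of 310 bases with no finger patterns, at 24.0 and 25.5 TPM, and by expected counts Gm4631 (1236.14 and 1525.57) stood above Gm14325 (246.03 and 307.01). In TPM it was followed by Gm14410 (22.8 TPM ± 0.81, SD, n = 2), Gm14305 (22.6 ± 3.70), Gm6710 (21.2 ± 1.49) and Gm14308 (20.4 ± 9.07). Next came Gm4631 (15.2 ± 0.25), Gm2026 (14.5 ± 5.05) and Gm14326 (11.7 ± 0.95). Gm14434 had 18.1 TPM in replicate 1 and 3.85 TPM in replicate 2. The SDs of Gm14305, Gm6710 and Gm14308 were larger than some of the distances between them and Gm14410, so the order of these genes is not fixed by these libraries. The same holds for Gm4631, Gm2026, Gm14326 and Gm14434.

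At the low end, 6 members had no count in either library: Gm11007, Gm2007, Gm11009, Zfp967, Gm14408 and Gm14406. Of these 4 had no unique window, and the deposited intervals still reached 4.43 and 5.71 TPM for Gm11007 and 4.49 and 6.04 TPM for Gm2007 in replicate 1 and replicate 2. A TPM of 0 does not measure absence there. Zfp972 had 0 and 7 counts, Gm14444 had 1 and 1, Gm14401 had 0 and 1.01, Gm14409 had 0 and 1.63, and Gm14393 had 7.98 and 7.86, in replicate 1 and replicate 2.

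**Figure D1:**
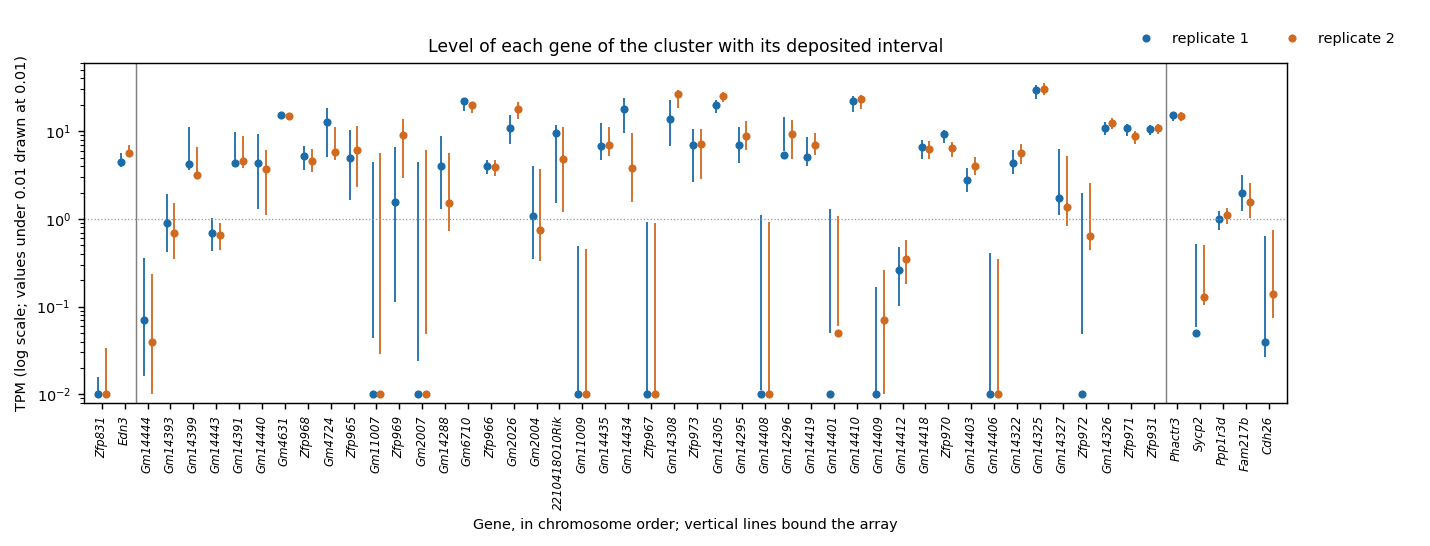
Deposited TPM (points, log axis) of the 52 genes in chromosome order, with the deposited TPM interval (lines), replicate 1 left of replicate 2 for each gene. Gm14325 is highest at 29.7 and 30.7 TPM, the intervals of Gm11007 and Gm2007 reach above 4 TPM although the points are at 0, and the intervals of the libraries are apart for Gm14434.

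The flanking genes were measured from unique sequence alone. Phactr3, a regulator of protein phosphatase 1 and actin, had 574 counts in replicate 1 and 696 in replicate 2, or 15.1 ± 0.18 TPM (SD, n = 2). Edn3, the ligand endothelin 3 of neural crest development, had 219 and 407 counts (4.41 and 5.72 TPM) and a log2 ratio of −0.53 (−0.77 to −0.29). Its ratio lies just past the low end of both marker ranges given above, −0.50 for the midbrain and neuronal markers and −0.50 for the blood, connective tissue and endothelial markers, and the part of either in it was not tested. Fam217b averaged 1.77 TPM, and Ppp1r3d, a glycogen-targeting subunit of protein phosphatase 1, had 59 and 84 counts. Sycp2, a protein of the meiotic synaptonemal complex, had 4 and 10 counts (log2 ratio −0.96, −3.09 to 0.84), Cdh26, a cadherin, had 2 and 7, and Zfp831 had 0 and 3. The nearest protein-coding genes outside the limits were Prelid3b, with 2058 and 2696 counts (78.1 and 79.8 TPM), and Cdh4, with 1869 and 2037 counts (17.1 and 14.3 TPM).

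Single genes of the array differed far more between the libraries than their sum. Of the 39 members with at least 10 counts in a library, 6 were past 2-fold, or 15.4%, against a background of 3.61% of 15108 protein-coding genes with that depth. Higher in replicate 1 were 3 of them, Gm14434, Gm4724 and 2210418O10Rik (background 1.47%). Higher in replicate 2 were the other 3, Zfp969, Gm14296 and Gm14308 (background 2.14%). Since Gm14434 and Zfp969 are the genes from which the region was proposed, the count is given with no inference. All 6 belong to the families whose longest coding sequences are identical, but their counts lay on other transcripts. The transcripts with that longest coding sequence had 0 counts in both libraries, except for 2.59 counts of Gm4724 in replicate 1. Under ERCC scaling 2210418O10Rik came to 0.77 and Sycp2, a flanking gene, to −1.23, so that 2 members were past 2-fold higher in replicate 1 (background 0.966%) and 4 higher in replicate 2 (background 3.71%). None of the 18 array members that had a coding sequence of their own and at least 10 counts was past 2-fold under TMM scaling.

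Gm14434 had 389.62 counts in replicate 1 and 41.71 in replicate 2, a log2 ratio of 3.59. It was the highest of the 39 ratios. Gm4724 had 222.67 and 98.49 counts (log2 ratio 1.54). Gm14308, of the same 7-gene family, had 296.17 and 797.48 (−1.07), and Gm2026 had 311.07 and 649.14 (−0.70). Gm4631, the family member with the most unique sequence (61.4%), had 1236.14 and 1525.57 counts and a log2 ratio of 0.06. The copies thus ran in opposite directions, and Gm11007 and Gm2007 took no counts. Summed over the 7 genes there were 2455.67 counts in replicate 1 and 3112.39 in replicate 2, a log2 ratio of 0.02 (−0.06 to 0.10). In TPM the family summed to 71.1 and 69.6.

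Zfp969 had 4.50 counts in replicate 1 and 32.89 in replicate 2, a log2 ratio of −2.51 and the lowest of the 39. Zfp968 had 113.34 and 125.95 counts (0.21), Zfp966 had 213.15 and 250.15 (0.13), and Zfp967 had none. The 4 genes summed to 330.99 and 408.99 counts, a log2 ratio of 0.06 (−0.16 to 0.27). Their summed TPM was nevertheless 10.8 in replicate 1 and 17.7 in replicate 2. All counts of Zfp969 lay on a transcript of 252 bases, whose effective length, the number of places where a read can start, was 153. On so short a transcript those counts were worth 1.58 and 9.12 TPM, while the 213.15 and 247.28 counts of the 2939-base transcript of Zfp966 were worth 4.02 and 3.69 TPM. A sum of TPM over near-identical copies is for that reason not a fixed quantity when reads move between copies of unequal length.

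The other 4 families were pairs. 2210418O10Rik had 664.63 and 415.98 counts (log2 ratio 1.04) and Gm14296 had 232.92 and 660.53 (−1.14), while the pair summed to 897.55 and 1076.51 (0.10, −0.03 to 0.23). Gm2004 had 32.83 and 29.15 counts (0.53) and Gm14419 had 57.53 and 118.06 (−0.67), with a pair ratio of −0.34 (−0.74 to 0.04). Gm14391 and Gm6710 had log2 ratios of −0.10 and 0.18 and a pair ratio of 0.09. Zfp965 and Zfp973 had −0.04 and 0.04 and a pair ratio of 0.01.

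**Figure D2:**
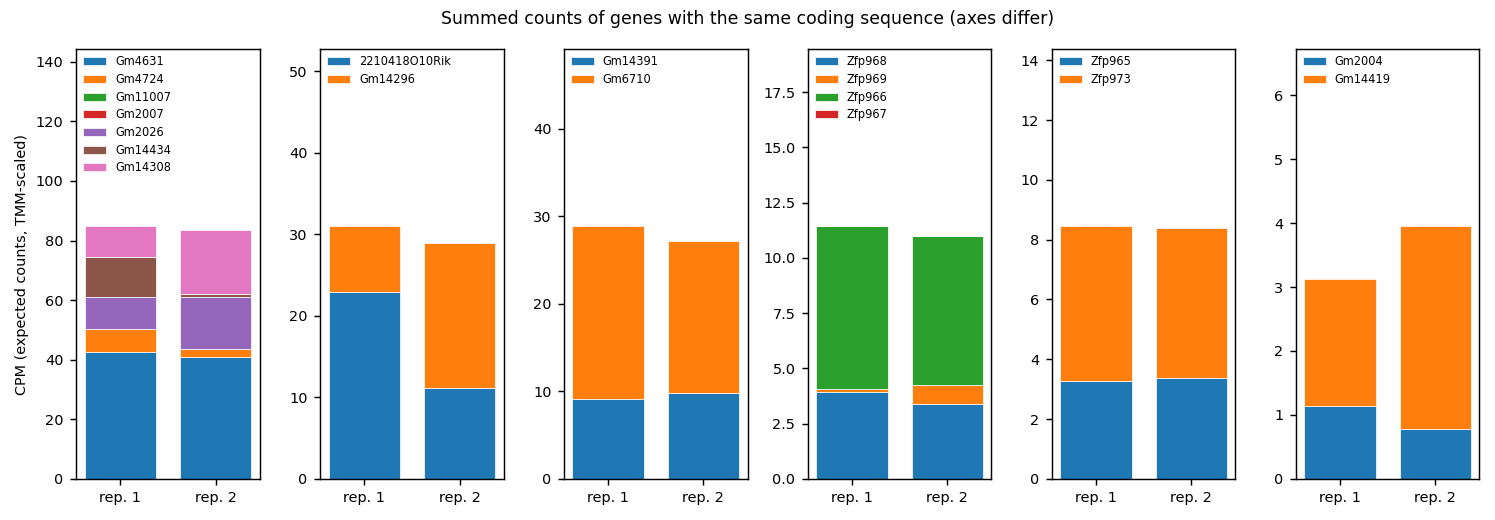
TMM-scaled expected counts (CPM) in replicate 1 (left bar) and replicate 2 (right bar) for the 6 families with identical coding sequences, stacked by gene, each family on its own axis. Segments change most for Gm14434 (389.62 and 41.71 counts), Gm14308 (296.17 and 797.48) and the pair of 2210418O10Rik and Gm14296, hardly for Zfp965 and Zfp973, and the sum ratio is −0.34 for Gm2004 and Gm14419 and from 0.01 to 0.10 for the other 5 families.

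Array members outside the families stayed within 2-fold. The largest ratio in replicate 1's favour was that of Gm14288 (12.72 and 8.61 counts, log2 ratio 0.93, counting interval −0.44 to 2.30), which has no unique window. Zfp970, 82.6% unique, had 182.12 and 156.79 counts (0.58, 0.26 to 0.89). Gm14403, 95.1% unique, had 39.28 and 76.85 (−0.60, −1.21 to −0.04). Gm14305, the near copy of Gm14434 whose sequence is printed above, had 411.40 and 671.82 counts and a log2 ratio of −0.34. Gm14325 had 246.03 and 307.01 counts and a log2 ratio of 0.04.

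The ratios were also sorted by how much of a gene was unique, with Gm14434 and Zfp969 among the genes sorted. Of the 10 array members under 10% unique that had 10 counts, 5 were past 2-fold, and their median absolute log2 ratio was 0.98. Without Gm14434 and Zfp969, 3 of 8 were past 2-fold and the median was 0.81. Among the 14 with 10% to 50% unique windows 1 was past 2-fold (Gm14296) and the median was 0.20. Among the 10 with 50% or more none was, and the median was 0.18. Over all protein-coding genes the median was 0.11. Spearman's rho between unique share and absolute log2 ratio was −0.41 across the 34 array genes, and −0.31 without Gm14434 and Zfp969. The genes share libraries and reads, so it is a description across genes and not across samples. Between mean counts and absolute log2 ratio it was −0.17.

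**Figure D3:**
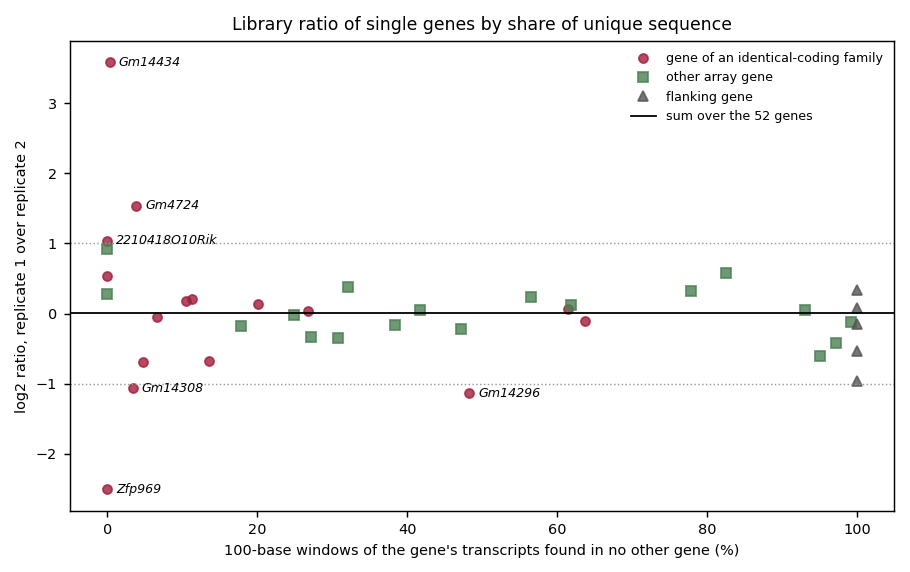
Log2 ratio of expected counts, replicate 1 over replicate 2, against the percent of unique 100-base windows for the 39 genes with 10 counts or more. The 6 named genes beyond the dotted 2-fold lines all belong to families whose longest coding sequences are identical. Of these genes 5 are under 10% unique, and the line for the sum of the 52 genes lies at 0.01.

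Other zinc-finger regions were set beside the cluster. Of the 13 genes with 10 counts in a zinc-finger region of chromosome 4 none was past 2-fold (median absolute log2 ratio 0.11, median unique share 71.4%). In a region of chromosome 13, 3 of 33 were (0.13, 97.4%), and of 357 Zfp genes elsewhere 4 were (0.09, 100%). The sums of both regions were as even as that of the cluster, with log2 ratios of −0.02 and 0.02. The differences between regions were not tested, since genes of a region are not replicates.

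The deposited tables carry their own measure of how well a count can be placed. Beside each expected count stands a posterior mean, an average over sampled assignments of the reads, with its SD. In both libraries 16 of the 39 members, or 41.0%, had a posterior SD of 10% of the mean or more, against a background of 2.08%. For Gm14434 the posterior mean was 383.15 ± 93.27 counts in replicate 1 and 112.23 ± 61.62 in replicate 2 (posterior SD), which brought its log2 ratio to 2.13. For Zfp969 the ratio became −1.59. For 2210418O10Rik and Gm14296 it became 0.09 and 0.10, so that their opposite differences in expected counts were gone. By posterior means 2 of the 39 members were past 2-fold, or 5.13%, against a background of 3.4%, and both (Gm14434 and Zfp969) are the genes from which the region was proposed.

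The posterior SD followed the unique share closely. Its median, relative to the mean, was 43.8% in array members under 10% unique, 9.12% in those from 10% to 50%, 3.46% in those with 50% or more and 0 in flanking members. Spearman's rho across the 34 array genes was −0.82. The deposited TPM intervals, whose level is not given in the sources used here, were apart between the libraries for Gm14434 only, at 9.61 to 24.0 TPM in replicate 1 and 1.55 to 9.44 TPM in replicate 2. That is 1 of 39 members, or 2.56%, against a background of 14.1%. With M4 the Gm14434 intervals overlapped, at 10.3 to 24.5 TPM and 0.86 to 10.7 TPM. The Zfp969 intervals overlapped with M21, from 0.11 to 6.58 TPM in replicate 1 and from 2.95 to 13.7 TPM in replicate 2.

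Expected counts per transcript show where the model placed the reads. Most of Gm14434 in replicate 1 was a transcript of 1458 bases with 353.56 counts, and in replicate 2 that transcript had 0. A transcript of Gm14308, also of 1458 bases, had 252.60 and 751.93 counts. The sequences of this pair differ at 2 adjacent bases, G564C and G565A, given as the base of Gm14308, the position in the transcript and the base of Gm14434. Together the pair had 606.16 counts in replicate 1 and 751.93 in replicate 2, a log2 ratio of 0.05. Their posterior means were 350.82 ± 96.84 and 80.71 ± 64.13 for the Gm14434 transcript, and 251.01 ± 107.65 and 643.71 ± 83.08 for the Gm14308 transcript.

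Some members share a transcript outright. Among their 154 transcripts were 25 pairs of identical sequence from different genes, and 5 of these pairs had at least 10 counts in each library. In replicate 1, 1 of the 5 pairs was split equally (within 1% of the pair's sum). In replicate 2 all 5 were. Over all protein-coding genes there were 13 such pairs with those counts, these 5 included, of which 69.2% were split equally in replicate 1 and 100% in replicate 2. All 4 unequal pairs were therefore pairs of this cluster. The settings, start values and stopping rule of the quantification in each library are not given in the sources used here, and whether they differed between the libraries was not tested.

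The identical 3823-base transcript had 654.19 counts under 2210418O10Rik and 5.96 under Gm14296 in replicate 1, and 409.36 under each in replicate 2. Its posterior means were 349.41 ± 178.66 and 287.45 ± 177.52 in replicate 1, and 424.27 ± 259.84 and 377.29 ± 260.65 in replicate 2, in the same order of genes. The sums of the pair were 660.15 and 818.72 counts, a log2 ratio of 0.05. No read within such a transcript can tell its genes apart, so the 2-fold differences of 2210418O10Rik and Gm14296 rest on a division that the sequence does not determine. The 1749-base transcript of Gm2004 and Gm14419 had 32.83 and 0.02 counts in replicate 1 and 29.15 each in replicate 2. The 1665-base transcript of Gm6710 and Gm14391 had 85.55 and 0 in replicate 1 and 59.70 each in replicate 2. The 1271-base transcript of Zfp965 and Zfp973 was split evenly in both, at 88.97 each and 107.93 each.

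**Figure D4:**
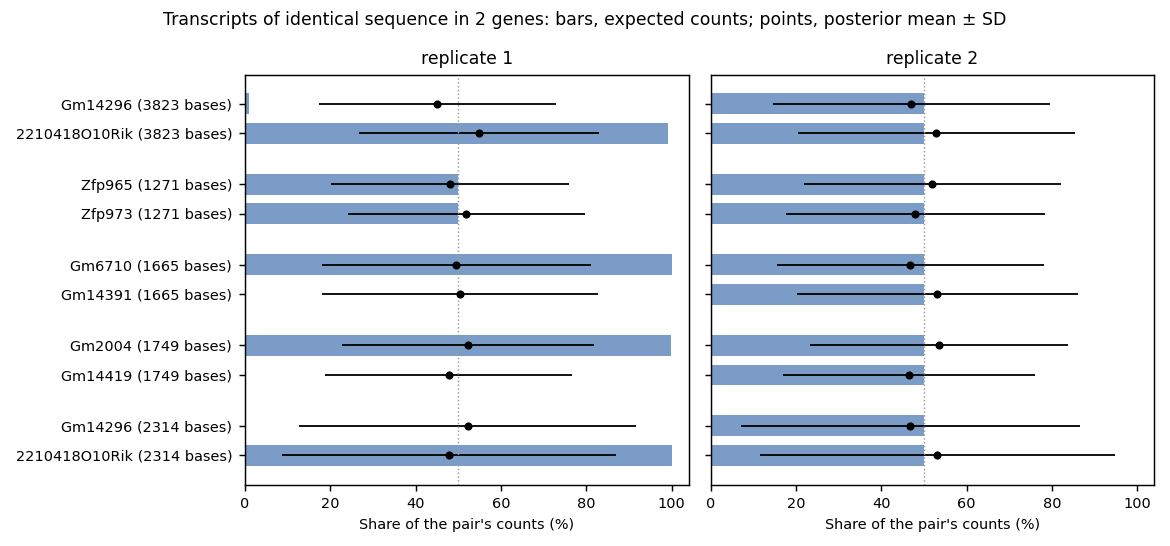
Share of the counts of each pair of identical transcripts (percent), replicate 1 in the left panel and replicate 2 in the right, with bars for expected counts and points with lines for posterior mean ± SD. All bars in replicate 2 stand at 50%, 4 of 5 pairs in replicate 1 are given almost whole to a single gene, and the posterior means lie near 50% throughout.

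Transcript shares within genes were compared next. The deposited tables give each transcript's percent of its gene's TPM. For 7 of the 102 member transcripts of genes with 50 counts in each library this share differed by 20 points or more, or 6.86%, against a background of 1.75%. They were 2 transcripts each of Edn3, Gm14296 and Gm4724 and 1 of Gm14391. In Gm4724 the 1198-base transcript took 56.9% of the gene in replicate 1 and 0% in replicate 2. In Gm14391 the transcript shared with Gm6710 took 0% in replicate 1 and 35.1% in replicate 2.

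Most counts of the array were placed on transcripts that do not encode the fingers. Each transcript was sorted by its own annotated coding sequence. Transcripts with the KRAB-like pattern and under 3 finger patterns took 57.2% of the array in replicate 1 and 57.7% in replicate 2. Transcripts with fingers and the KRAB-like pattern took 34.7% and 33.9%, and those with no coding sequence 6.91% and 7.31%. Over the 36 zinc-finger members alone, the KRAB-only transcripts took 49.9% and 51.1% (mean 50.5% ± 0.83, SD, n = 2). The share differed by under 2 points between the libraries. Reads from sequence that an annotated transcript lacks cannot be placed on it. The finger-encoding transcript of Gm14434 has 1497 bases, 1494 of them coding, and a KRAB-only transcript has 1458, 192 of them coding. That of Gm4631 with all its counts has 4402 bases, 1494 of them coding. Gm14399, at 1911 bases with 1830 coding, still had 83.3% and 91.2% of its counts on finger-encoding transcripts. The part of annotated length in the share was not tested.

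Genes differed widely in this respect. Of the 26 zinc-finger members with 10 counts in both libraries, 5 had no count on a finger-encoding transcript: Gm14434, Gm14308, Gm2026, Zfp965 and Zfp968. Their unique shares, over all transcripts of a gene, ran from 0.33% to 11.4%. The posterior means of their finger-encoding transcripts were 1.24 to 5.63 counts in replicate 1 and 1.57 to 4.43 in replicate 2. Whether these counts of 0 depend on how the model divided shared reads was not tested. In Gm4631, Gm2004 and Zfp966 finger-encoding transcripts took over 90% in both libraries. All counts of Gm2004 lay on the 1749-base transcript that is identical in Gm14419, so its count is not determined by the sequence. Within the 7-gene family, whose finger-encoding sequence is identical, Gm4631 had 1236.14 of 1238.73 such counts in replicate 1 and all 1525.57 in replicate 2. Reads inside that sequence cannot tell the 7 genes apart, so whether Gm4631 alone expresses these fingers is not shown. Gm14325, the highest of the zinc-finger members in TPM, had 61.5% and 58.8% of its counts on finger-encoding transcripts, Gm14305 had 13.6% and 18.1%, and Gm14418 had 18.4% and 12.9%.

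KRAB zinc-finger genes elsewhere were sorted the same way. In the 35 array genes with both patterns, KRAB-only transcripts held 49.9% in replicate 1 and 51.1% in replicate 2 of all counts. In the 180 such genes outside the array they held 4.50% and 4.73%. They held over 50% of a gene's counts in both libraries in 12 of 26 array genes, or 46.2%, and in 5 of 165 genes elsewhere, a background of 3.03%. With only genes for which both kinds of transcript are annotated, the shares were 66.5% and 67.7% over 28 array genes and 9.85% and 10.4% over 76 genes elsewhere. No test was made, and the share depends on which transcripts the annotation lists for each copy. How far the listed transcripts reach beyond the coding sequence was not compared between the array and elsewhere.

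**Figure D5:**
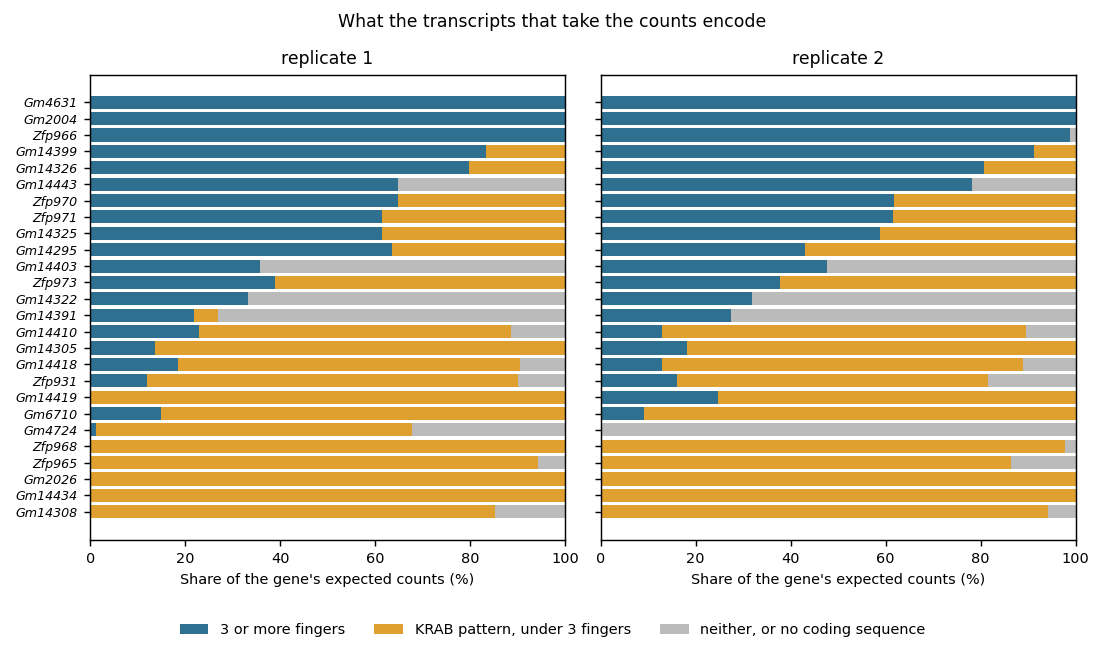
Percent of each gene's expected counts by what the transcripts encode, for the 26 zinc-finger members with 10 counts in both libraries, replicate 1 in the left panel and replicate 2 in the right. Gm4631, Gm2004 and Zfp966 are nearly all finger-encoding, while Gm14434, Gm14308, Gm2026, Zfp965 and Zfp968 have no finger-encoding counts in either library. Counts on sequence shared between genes are divided by the model.

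The choice of annotation moved little. All 52 members and all 154 of their transcripts were in both M21 and the older M4. None of the 35 members with enough counts differed 2-fold between annotations in both libraries, against a background of 1.72%. The M21 count differed from the M4 count by −3.82% to 5.25% over the 36 members with 10 counts in replicate 1, and by −2.43% to 7.47% over the 38 with 10 counts in replicate 2. The cluster summed to 8649.96 counts with M21 and 8650.00 with M4 in replicate 1, and to 11057.22 and 11058.43 in replicate 2. The largest differences among all members were those of Zfp969, with log2 ratios of M21 over M4 of 0.71 and 0.09 at 4.50 and 32.89 counts, and of Gm14288, with 0.07 and 0.50 at 12.72 and 8.61 counts. Gm14434, Gm14435, Gm4724, Gm14308, Gm14391 and Gm14440 followed, all between −0.06 and 0.10. Gm14434 was higher in replicate 1 with both annotations. They count the same reads of a gene from which the region was proposed, so M4 is not a second measurement.

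Partners of KRAB zinc-finger proteins were listed together with the KRAB zinc-finger genes Zfp57 and Zfp809. All 16 listed genes were above 1 TPM in both libraries, from 9.64 to 498 TPM with a median of 118 TPM, and none was past 2-fold. Trim28, the corepressor bound by the KRAB domain, had 321 and 295 TPM in replicate 1 and replicate 2. Setdb1, the histone H3 lysine 9 methyltransferase that TRIM28 recruits, had 47.6 and 47.2 TPM. The heterochromatin proteins Cbx1, Cbx3 and Cbx5 averaged 125, 498 and 162 TPM. Zfp57, which keeps imprints, averaged 141 TPM, and Zfp809, which silences retroviral elements, averaged 9.64 TPM. Among the members, 30.2 TPM for Gm14325 was the highest mean.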

How the data were processed

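Each of the 2 libraries came with gene and transcript tables against GENCODE M21 and M4 of mm10, per the manifests beside the tables. The deposited expected counts are unscaled estimates per the file headers. The deposited TPM and FPKM are scaled to length and depth, the deposited transcript shares are in percent, and the interval bounds of TPM and FPKM (a signal-like estimate that is never negative) were likewise deposited. The posterior means and SDs of counts, an estimated count with its error, are the authors' values. The aligner, the quantification tool and the strand setting are not given in the sources used here; column names are those of RSEM, and transcript length minus effective length was 99 in every transcript. Overlapping members (Zfp973 and Gm14305 on the same strand, Gm14327 and Zfp972 on opposite strands) may share reads.

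Library ratios used expected counts summed over genes, TMM scaling over counts rounded to whole numbers (edgeR 4.0.16, R 4.3.3) and exact conditional binomial (Clopper-Pearson) 95% intervals. Rows that name no gene (4.02% and 3.38% of counts in replicate 1 and replicate 2) were left out. A gene needed 10 counts in a library, a ratio was past 2-fold at an absolute log2 of 1, and no ratio was given where both libraries had 3 counts or fewer. Unique windows, coding sequences and finger patterns came from M21 transcript sequences, since protein sequences were not used here. The KRAB-like pattern was D or E, V, any, V or I, any, F, T or S, any, E or D, E, W. The replicates are separate pools, and the ratio and window procedures were tested on simulated data. For the ratios, simulated counts were drawn for each gene separately, so the division of shared reads between copies was not tested.

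Members and lists were chosen with earlier results of these data known. Named genes were the pair that led to the region, members with under 3 finger patterns, the 8 highest zinc-finger members, the 6 highest and lowest library ratios and the 8 largest annotation ratios; others were named after their values were seen. The sorting of transcripts by content and the identical transcript pairs were added after seeing the data. Alternatives were other scalings (DESeq2 1.42.0 size factors, ERCC spike-in RNAs, totals), count limits, posterior means, M4, TPM and leaving out each replicate.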

Additional observations from a re-analysis of the deposited data

Results flagged for a closer look

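Pseudogenes of the cluster, which the comparisons above leave out, also took counts. Of 41 pseudogenes in the limits 3 had at least 10 counts in a library, above the 3 counts that a count of 0 allows. Gm14421 had 57.08 counts in replicate 1 and 86.94 in replicate 2, Gm14387 had 26.22 and 43.70, and Gm14416 had 3.51 and 12.73. Their unique shares were 42.4%, 41.4% and 16.4%. Together the 41 pseudogenes had 107.77 counts in replicate 1 and 157.94 in replicate 2.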

How the results depend on the processing

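The cluster sum kept a log2 ratio near 0 under DESeq2 size factors, total gene counts, M4, posterior mean counts, zinc-finger members only and all gene rows of the region (−0.0008 to 0.012). Scaling by ERCC spike-in totals shifted every log2 ratio by −0.27 and gave −0.26. Leaving out Gm14434 and Zfp969 from the ratios by unique share was chosen after seeing the data. The number of members past 2-fold was 6 and became 2 with posterior mean counts and 11 with no count minimum and 0.5 added to each count. With no minimum the median absolute log2 ratio of zinc-finger members was 0.35, against 0.23 (0.17 with zinc-finger members named by symbol, an alternative added later). The cluster share was 0.0306% with M4. With a limit of 40 points 3 transcripts differed in share. Members with separate intervals numbered 0 with the M4 tables and 2 (Gm14434 and Zfp970) with FPKM bounds. The KRAB-only share of zinc-finger members was 66.8% in TPM. With posterior mean counts 5 identical pairs were past the 1% limit in replicate 2. Within each pair the posterior means differed by less than their posterior SDs, as in 424.27 ± 259.84 for 2210418O10Rik and 377.29 ± 260.65 for Gm14296. Leaving out a replicate gave 0.02977% to 0.02979% for the share, 35 to 36 detected members and 49.9% to 51.1% for the KRAB-only share; it gives no library ratio. The cause of these changes was not tested. Depth limits members under 10 counts, and shared sequence limits the placement of reads at any depth.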
